A study of Homo sapiens with 21 samples.

Results

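The 8 genes described here are AHR, ARNT, AHRR, TIPARP, CYP1A1, CYP1A2, CYP1B1 and ALDH3A1: a ligand-sensing receptor, its partner, 2 genes that restrain it and 4 enzyme genes it is known to switch on. They were matched by symbol to the Ensembl gene IDs of the deposited table, and all 8 were found among its 37637 features. Poly(A)-selected RNA was measured in 21 libraries of HepG2, an established human liver cancer line. The cells were kept in serum-free DMEM with caffeine at 0, 0.01, 0.1, 1, 10, 100 or 1000 µM for 6 h, with 3 libraries per dose, which the series calls biological replicates. The 0 µM libraries are the untreated controls and had the same serum-free medium. All groups therefore share the absence of serum and come from 1 cell line, and the labels do not say whether the replicates were grown on separate days.

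AHR, the aryl hydrocarbon receptor, is a transcription factor of the bHLH-PAS family that waits in the cytosol with chaperones until a small aromatic molecule binds it. It then enters the nucleus, pairs with ARNT and binds DNA at response elements that hold the letters GCGTG. CYP1A1 is the gene most often used to read its activity in liver cells, and CYP1A2, induced by the same receptor, is the main enzyme that demethylates caffeine in human liver. AHRR and TIPARP are induced by the receptor and then restrain it, which closes a feedback loop.

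The labelled cell type was checked against its markers. All 8 markers of a hepatocyte-derived line were present in every library, with ALB at 136053 to 246486 counts and AFP at 66491 to 112979. Of the fibroblast markers COL1A2 was at 0 throughout and DCN and LUM never passed 1 count, PTPRC and CD3E of the leukocyte list never passed 1 count, and VWF and CDH5 of the endothelial list never passed 5 and 9 counts. LYZ, CD68 and PDGFRB were present in this line, with at least 27878, 1954 and 123 counts. Library totals ran from 28043623 to 40827833 counts, so that 3 counts, the most that a count of 0 allows, equal 0.0735 to 0.107 CPM, the count scaled to a fixed library total. Mitochondrial genes took 4.95% to 14.2% of the counts over all libraries, 6.94% to 7.86% at 0 µM and 6.94% to 10.3% at 1000 µM. The 0 µM libraries stood apart from the low doses: 18.2% of the 17468 genes tested differed between 0 µM and the mean of 0.01 to 10 µM, a comparison added after the data were seen. This count rests on single control libraries, since the 3186 genes became 10 without 0 µM replicate 1 and 557 without replicate 2. For that reason the results below are given against 0 µM and, where the level there matters, also against the low doses or 100 µM.

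The sequences show where the members differ in the receptor's letters close to their starts. In the 250 bases before the start, RefSeq (GRCh38.p14) gave 9 windows for 6 of the 8 genes, and CYP1B1 and ALDH3A1 were not matched. GCGTG, or CACGC on the other strand, occurred in 4 of the 9 windows. These were the window of CYP1A1, both windows of AHRR and the first of 3 windows of TIPARP. No window of AHR, ARNT or CYP1A2 held it. The same letters occurred in 32.2% of 35116 RefSeq windows of this length, and in 4.52% they stood in a longer form, TNGCGTG, where N is any base. The longer form was also searched on both strands and contains the short one. A match is a description of the letters and not a bound site, and sites farther out were not searched. The stretches below are turned so that the core reads GCGTG, given in capitals, with the position of the match before the start.
CYP1A1, chr15:74725568-74725597, minus strand, position -57: ccagggaaggagGCGTGgccacacgtacaa
AHRR, window 1, chr5:321672-321701, plus strand, position -30: ggcgggcggctcGCGTGccggggtggggca
AHRR, window 2, chr5:322360-322389, plus strand, position -247: ggcGCGTGacaggcaggggccaccctctga
AHRR, window 2, chr5:322556-322585, plus strand, position -42: gcagaagggtggGCGTGtgcgcgcgttctc
TIPARP, window 1, chr3:156674370-156674399, minus strand, position -208: ctcccgcgaggggGCGTGtcctttctcgcg
TIPARP, window 1, chr3:156674436-156674465, minus strand, position -142: gccccctgcgcgcGCGTGcgcgttcgttcg
The AHRR match at -30 was the one that also fitted the longer form. Both TIPARP matches lie on the strand opposite to the gene. Of the CYP1A1 window 82 bases, and of the first TIPARP window 248 bases, lie in exons of longer transcripts of the same genes in GENCODE v29, so only the short stretches are given. To show a window with matches on the longer form beside one without any, the first AHRR window (chr5:321464-321713, plus strand, outside GENCODE v29 exons of AHRR) and the CYP1A2 window (chr15:74748595-74748843, plus strand, up to the last base before its GENCODE exon) read as follows, with any core letters in capitals.
AHRR: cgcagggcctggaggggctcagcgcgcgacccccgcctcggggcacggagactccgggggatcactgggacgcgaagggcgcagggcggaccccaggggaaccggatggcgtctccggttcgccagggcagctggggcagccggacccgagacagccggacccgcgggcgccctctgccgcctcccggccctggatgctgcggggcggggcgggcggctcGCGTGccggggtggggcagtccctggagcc
CYP1A2: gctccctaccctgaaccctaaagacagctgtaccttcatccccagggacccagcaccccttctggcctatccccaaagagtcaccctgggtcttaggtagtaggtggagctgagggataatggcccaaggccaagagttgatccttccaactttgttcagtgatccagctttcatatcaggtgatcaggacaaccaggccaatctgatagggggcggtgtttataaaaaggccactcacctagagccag
The first AHRR window is 79.2% G and C and the CYP1A2 window 52.8%.

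At 1000 µM all 7 members that could be tested were higher than at 0 µM, and their log2 differences ran from 0.51 for TIPARP to 3.80 for CYP1A1. Against this count stands the background: 20.6% of all genes tested were called higher at 1000 µM and 41.2% were called in either direction (edgeR's quasi-likelihood test, Benjamini-Hochberg adjusted p under 0.05). The 1000 µM libraries lay above all 3 control libraries for each of the 7, as they did for 25.9% of all genes. Of the 7, AHRR and CYP1A2 passed the filter on low counts only through their 1000 µM libraries, so they had to be high there to be tested, and CYP1B1 did not pass it. At 100 µM 1 member was called, CYP1A1, against 2.74% of all genes called higher and 6.02% in either direction. At 10 µM 3 members were called, AHR, ARNT and CYP1A1, against 11.3% and 22.0%. At 0.01 µM AHR alone was called, against 2.87% and 4.95%, and at 0.1 and 1 µM no member was called, where 0% of all genes were (2651 and 3980 genes had an unadjusted p under 0.05). In the test among the 7 groups 6 of the 7 passed, with TIPARP at an adjusted p of 0.0524, against 28.1% of all genes. No member was called lower at any dose. Every dose was set against the same 3 control libraries.

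**Figure D1:**
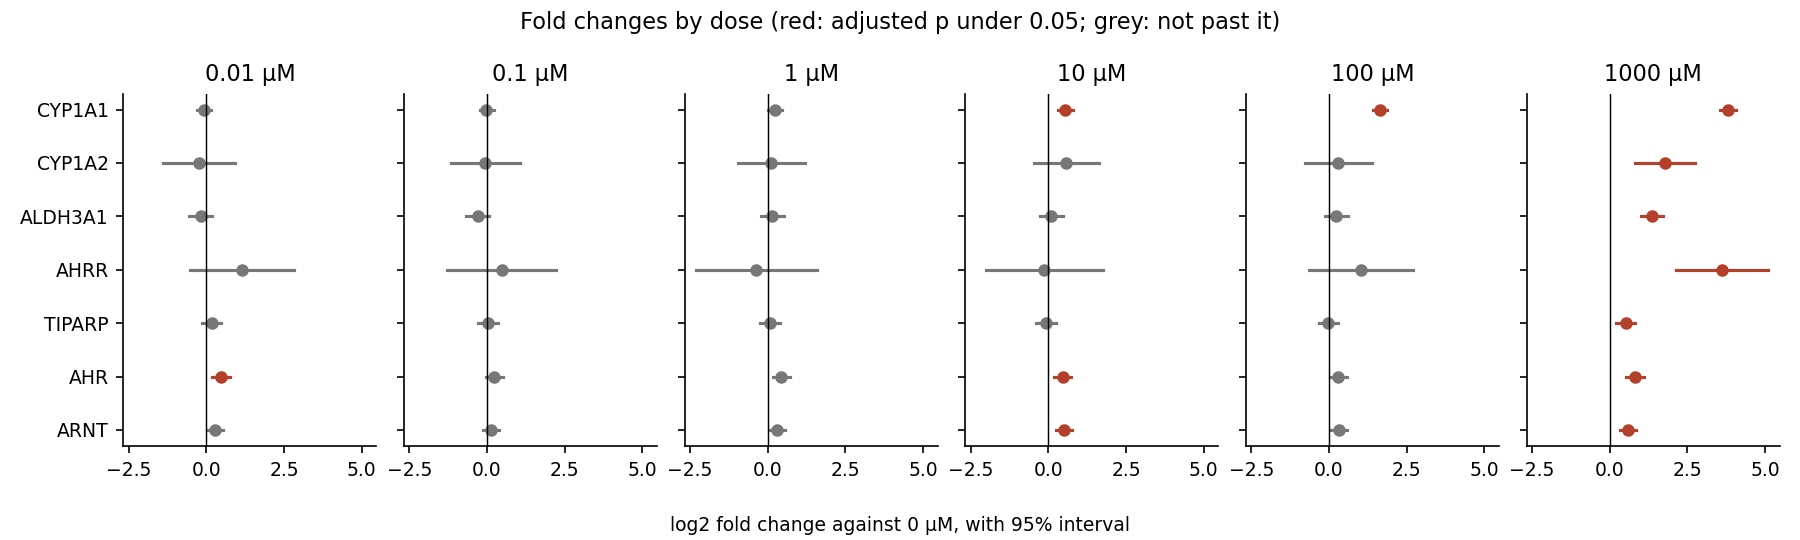
Log2 fold change of the 7 tested members against 0 µM (horizontal axis, bars are 95% intervals) at each caffeine dose (panels), with red for an adjusted p under 0.05. Red marks are AHR at 0.01 µM, AHR, ARNT and CYP1A1 at 10 µM, CYP1A1 at 100 µM and all 7 genes at 1000 µM, while the intervals of AHRR and CYP1A2, counted at 75 or fewer reads per library, are the widest.

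CYP1A1 (ENSG00000140465.14, GRCh38 chr15:74719542-74725610, minus strand, coordinates of the gene in GENCODE v29) is the cytochrome P450 that oxidises aromatic hydrocarbons. Its level was 45.6, 45.5 and 42.7 CPM in the 3 libraries at 0 µM. It was 33.7, 46.3 and 46.4 CPM at 0.01 µM and 44.7, 43.7 and 43.8 CPM at 0.1 µM. The libraries of these 3 groups overlapped. At 1 µM it was 49.0, 47.7 and 59.7 CPM, all above the controls, with a log2 difference of 0.23 ± 0.11 (SE) that did not pass (adjusted p 0.220). At 10 µM it was 69.3, 64.5 and 62.1 CPM. At 100 µM it was 135, 144 and 134 CPM. From 0.1 µM upward each step of the dose thus lay apart from the next, with no library of one dose inside the range of another. At 1000 µM it was 653, 611 and 604 CPM, which rested on 19065 to 24818 counts per library. Over all genes, 11.1%, 22.4% and 21.0% had all libraries at 1, 10 and 100 µM, respectively, above the controls. For 18.5% of all genes the 1000 µM libraries all lay above those at 100 µM. For the steps between 0.1 and 100 µM the share over all genes was not counted, so the separation there is a description.

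**Figure D2:**
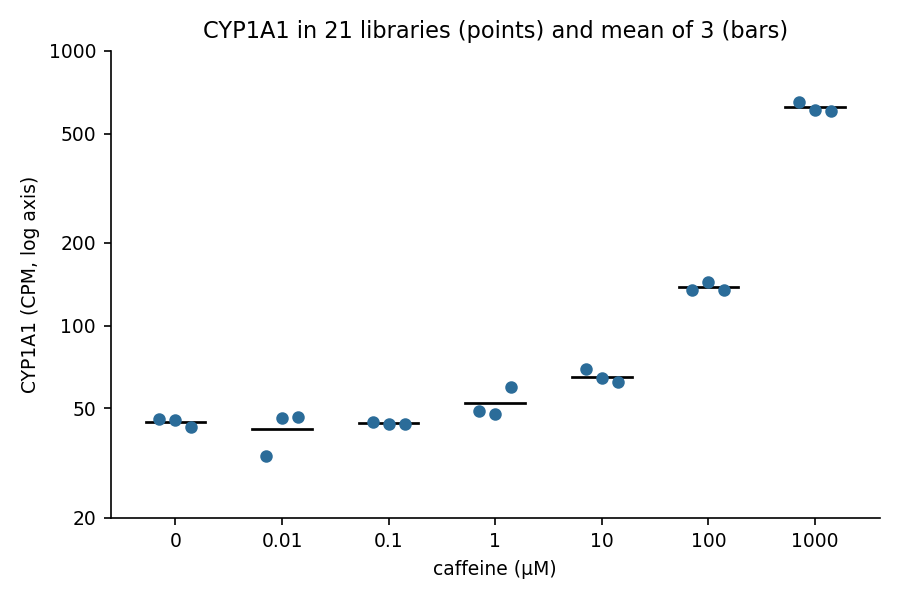
CYP1A1 level (CPM, log axis) against caffeine dose, with 1 point per library and a bar at the mean of 3. The points stay between 33.7 and 46.4 CPM up to 0.1 µM, climb from 1 µM and reach 604 to 653 CPM at 1000 µM.

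The lowest dose at which CYP1A1 passed against 0 µM was 10 µM, the fold there being 1.46 (log2 interval 0.32 to 0.78, adjusted p 0.00428). Between 100 and 1000 µM, a comparison that does not use the controls, it rose by a further 4.52 times (log2 2.18 ± 0.11, adjusted p 6.66e-10). Against the mean of the 4 doses from 0.01 to 10 µM, the 100 µM libraries were 2.75 times higher (log2 1.46 ± 0.08, adjusted p 4.06e-09). CYP1A1 had the smallest p-value of all genes in that comparison, where 0.281% of genes were called higher and 0.447% in either direction, and it was the one member called. By the size of the fold it ranked 60 there and 36 at 1000 µM against 0 µM, so other genes moved farther with a wider spread. Leaving out any 1 library kept the log2 fold at 1000 µM between 3.79 and 3.84. Whether more RNA per cell or more cells with the RNA gave these levels cannot be told apart in bulk libraries.

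**Figure D3:**
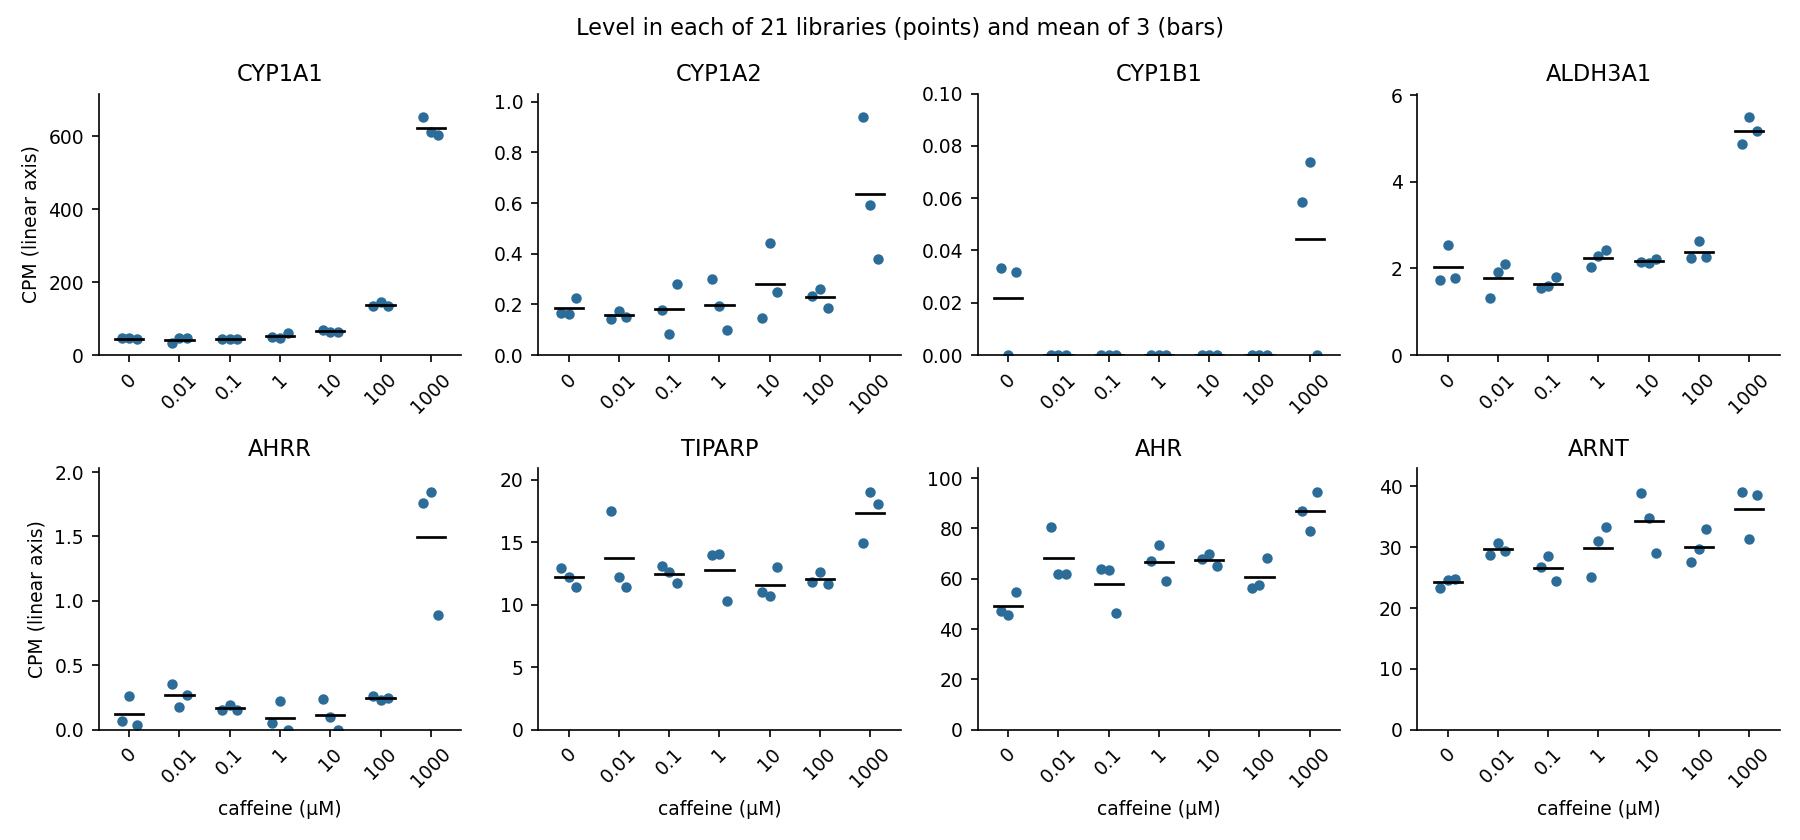
Level of each of the 8 members (CPM, linear axes from 0 that differ between panels) against caffeine dose, with 1 point per library and a bar at the mean of 3. CYP1A1, AHRR, CYP1A2, ALDH3A1, TIPARP and AHR have all 3 points at 1000 µM above the 0 and 100 µM points. AHR and ARNT have their lowest means at 0 µM, and CYP1B1 is near 0 throughout.

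CYP1A2 (ENSG00000140505.7, chr15:74748844-74756202, plus strand) is the neighbour of CYP1A1 and its close relative. It had 5, 5 and 7 counts at 0 µM, 8, 9 and 6 at 100 µM and 32, 24 and 12 at 1000 µM. All other doses gave 3 to 14 counts, and the 10 and 1000 µM ranges overlapped, at 0.148 to 0.443 and 0.380 to 0.939 CPM. CYP1A2 passed the filter on low counts only through its 1000 µM libraries, so its calls there are a description. The log2 difference at 1000 µM was 1.77 ± 0.46 (adjusted p 0.00543) against 0 µM and 1.47 ± 0.44 (adjusted p 0.0332) against 100 µM. The second of these calls was lost without any of the 6 libraries except 1000 µM replicate 3, with adjusted p from 0.0626 to 0.122, and also with a replicate block (adjusted p 0.0529). Reads could in principle be shared with CYP1A1, so the values that bear on it are given. The longest stretch in which transcripts of both genes are identical in GENCODE v29 is 40 bases. Of 2699 stretches of 30 bases in CYP1A2 transcripts 33 occur in CYP1A1, and of 2679 stretches of 50 bases 0 do. Only exact matches were compared. As a share of the CYP1A1 counts of the same libraries, CYP1A2 counts were 0.413% without caffeine, 0.421% in the 10 µM group, 0.165% in the 100 µM group and 0.103% in the 1000 µM group. The share was lowest in the 2 groups where CYP1A1 was highest, and the part of shared reads in the CYP1A2 counts was not tested.

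CYP1B1 (ENSG00000138061.12, chr2:38066973-38109902, minus strand), the third CYP1 enzyme and a receptor target in many other tissues, was at the limit of detection. It had 1, 0 and 1 counts at 0 µM, 0 in all 15 libraries from 0.01 to 100 µM, and 2, 3 and 0 at 1000 µM. No value passed the limit of 3 counts, and a change was not detectable at this depth. Its antisense neighbour CYP1B1-AS1 had 0 to 11 counts.

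ALDH3A1 (ENSG00000108602.18, chr17:19737984-19748943, minus strand), an aldehyde dehydrogenase of the receptor's gene battery, had 1.74, 2.54 and 1.79 CPM at 0 µM. It had 2.24, 2.63 and 2.27 CPM at 100 µM and 4.87, 5.49 and 5.17 CPM at 1000 µM. The top dose stood clear of all 18 other libraries, which lay between 1.32 and 2.63 CPM. How many of all genes show this was not counted. For 25.9% of all genes the 1000 µM libraries lay above those at 0 µM, and for 18.5% above those at 100 µM. The log2 difference of ALDH3A1 at 1000 µM was 1.35 ± 0.17 against 0 µM (adjusted p 1.17e-05) and 1.12 ± 0.17 against 100 µM (adjusted p 0.000229). Neither call was lost when any 1 library was left out.

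AHRR (ENSG00000063438.17, chr5:304176-438291, plus strand), the repressor that competes with AHR for ARNT, was barely counted below the top dose. It had 2, 8 and 1 counts at 0 µM and 9, 8 and 8 at 100 µM. At 1000 µM it had 60, 75 and 28 counts, all above the 0 to 10 counts of the other 18 libraries. That separation was not counted over all genes. AHRR passed the filter on low counts only through its 1000 µM libraries, so its separation and calls there are a description. The log2 difference was 3.62 ± 0.71 against 0 µM (adjusted p 0.000596) and 2.58 ± 0.63 against 100 µM (adjusted p 0.0102). The first rests on few control counts: it was 4.83 without 0 µM replicate 2 and 3.19 without 0 µM replicate 3. The second lost its call without 100 µM replicate 2 (adjusted p 0.0507). In GENCODE v29 AHRR shares 244 exon bases with PDCD6, a gene of the same strand counted at 1535 to 3562, so some reads of one could be assigned to the other.

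TIPARP (ENSG00000163659.13, chr3:156673235-156706770, plus strand) encodes a mono-ADP-ribosyltransferase that marks AHR for loss. Its level was 12.9, 12.2 and 11.5 CPM at 0 µM and 11.8, 12.6 and 11.7 CPM at 100 µM. It was 14.9, 19.0 and 18.1 CPM at 1000 µM, above both of those groups. One library at 0.01 µM also reached 17.5 CPM, inside the range of the top dose, so the 0.01 and 1000 µM groups overlapped. The log2 difference at 1000 µM was 0.51 ± 0.15 against 0 µM (adjusted p 0.0118), 0.53 ± 0.15 against 100 µM (adjusted p 0.0247) and 0.46 ± 0.11 against the mean of 0.01 to 10 µM (adjusted p 0.00531). The call against 100 µM was lost without any of the 6 libraries except 1000 µM replicate 1, with adjusted p from 0.0541 to 0.0916.

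AHR itself (ENSG00000106546.14, chr7:16916359-17346152, plus strand) had its lowest mean in the controls and its highest at 1000 µM. It had 47.0, 45.5 and 54.7 CPM at 0 µM. The 0.01 µM libraries had 80.7, 62.0 and 61.9 CPM, those at 10 µM 67.7, 69.7 and 64.9, and those at 100 µM 56.2, 57.4 and 68.1. At the top dose it had 86.9, 78.8 and 94.5 CPM. All 3 libraries lay above the 3 controls at every dose but 0.1 µM. Below 1000 µM the doses with caffeine overlapped one another, except that 0.1 µM (46.5 to 63.9 CPM) lay below 10 µM (64.9 to 69.7 CPM). The 0.01 and 1000 µM groups also overlapped, at 80.7 CPM in the highest library of the first and 78.8 CPM in the lowest of the second. Over all genes the share with all libraries above the controls at the 0.01, 1, 10 and 100 µM doses was 15.7%, 11.1%, 22.4% and 21.0%. AHR passed against 0 µM at 0.01 µM (log2 0.47 ± 0.13, adjusted p 0.0492), at 10 µM (0.46 ± 0.13, adjusted p 0.0222) and at 1000 µM (0.82 ± 0.13, adjusted p 0.000137), whereas 0.1, 1 and 100 µM did not pass (adjusted p 0.413, 0.0905 and 0.165). The call at 0.01 µM was lost without 0.01 µM replicate 1 (adjusted p 0.169), without 0.01 µM replicate 2 (0.0626) and without 0 µM replicate 1 or 2 (0.196 and 0.171). It was also lost with a replicate block (adjusted p 0.0781), with library totals in place of TMM (0.0707) and in a fit of the 2 groups alone (0.116). The call at 10 µM was lost without replicate 1 or 2 of either group, with adjusted p from 0.0699 to 0.0909.

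Taking the 4 doses from 0.01 to 10 µM as a mean, AHR was 1.32 times its level at 0 µM (log2 0.40 ± 0.11, adjusted p 0.0186). This call was lost without 0 µM replicate 1 (adjusted p 0.125) or replicate 2 (adjusted p 0.113). In that comparison 2 members passed, AHR and ARNT, against 9.31% of all genes called higher and 18.2% in either direction. From 100 to 1000 µM AHR rose by 1.43 times (log2 0.52 ± 0.13, adjusted p 0.0140), and this call was lost without 100 µM replicate 1 or 2 or 1000 µM replicate 3 (adjusted p 0.0593 to 0.0771). Against the mean of the low doses the rise at 1000 µM was 0.42 ± 0.10 on the log2 scale (adjusted p 0.00463), where 16.3% of all genes were called higher and 30.7% in either direction. In GENCODE v29 AHR shares 2373 exon bases with a gene of the same strand, AC019117.2, which had 0 to 15 counts.

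ARNT (ENSG00000143437.21, chr1:150809705-150876768, minus strand), which also pairs with the hypoxia factors, had 23.3, 24.5 and 24.9 CPM at 0 µM. It had 39.0, 34.8 and 29.1 CPM at 10 µM, 27.5, 29.7 and 33.1 at 100 µM and 39.1, 31.3 and 38.5 at 1000 µM. The controls had the lowest mean, but 0.1 µM replicate 3, at 24.4 CPM, lay inside their range. The 3 groups from 10 µM overlapped. ARNT passed against 0 µM at 10 µM (log2 0.50 ± 0.12, adjusted p 0.00962) and at 1000 µM (0.58 ± 0.12, adjusted p 0.00109) but not at 100 µM (0.31 ± 0.12, adjusted p 0.120). The call at 10 µM was lost without 0 µM replicate 1 (adjusted p 0.0510) and without 10 µM replicate 1 (adjusted p 0.0631). Between 1000 and 100 µM it differed by 0.27 ± 0.12 on the log2 scale, with an interval from 0.01 to 0.53 and an adjusted p of 0.146. It was the tested member that did not pass there, where 6 of 7 did, against 8.15% of all genes called higher and 14.7% in either direction. The libraries of those 6 did not overlap between 100 and 1000 µM, and 18.5% of all genes had all 1000 µM libraries above. AHRR and CYP1A2 are among the 6 and were tested only because their 1000 µM libraries are high, so the count of 6 is a description. The mean of 0.01 to 10 µM lay 0.31 ± 0.10 above 0 µM (adjusted p 0.0394), a call that was lost with a replicate block (adjusted p 0.0588). It was also lost, with adjusted p up to 0.192, without any of the controls, 0.01 µM replicate 2, 0.1 µM replicate 1 or 2, 1 µM replicate 2 or 10 µM replicate 1 or 2.

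Levels per length order the members in the same way at both ends of the dose range for the first 5 genes. As RPKM, the CPM divided by the exon length in kilobases (union of GENCODE v29 exons), the mean level at 0 µM was 13.0 for CYP1A1, 6.07 for AHR, 3.72 for ARNT, 2.42 for TIPARP, 0.516 for ALDH3A1, 0.0674 for CYP1A2 and 0.0155 for AHRR. No 2 neighbours in that order overlapped between libraries except AHRR and CYP1B1. At 1000 µM the RPKM level of CYP1A1 was 181 and that of AHR 10.7. CYP1A2 (0.233) and AHRR (0.195) then overlapped, and the other neighbours did not. CYP1A1 was thus the highest of the 8 per length before any caffeine was added, and the members with the lowest levels, CYP1B1, AHRR and CYP1A2, stayed the lowest.

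The genes with the dose pattern most like CYP1A1 were sought among 12436 genes with a symbol. All of these had a mean of at least 1 CPM over the 21 libraries. They were ranked by the root mean square difference of log2 CPM over these libraries, after centring each gene. The nearest were BMF (0.34), a pro-apoptotic BCL2 relative, HR (0.47), a corepressor, ATOH8 (0.49), a bHLH transcription factor, IGFBP1 (0.56), a secreted binder of insulin-like growth factors made by liver, and TNS4 (0.57), a focal adhesion protein. CYP1A1 itself varied with an SD of 1.32 log2 units over the same libraries, so the differences are small beside its range. BMF rose from 5.41 CPM at 0 µM to 11.0 at 100 µM and 48.6 at 1000 µM, all as group means. IGFBP1 was at 43.4, 54.5 and 300 CPM in the same groups. ATOH8 was at 0.388, 0.742 and 8.57 CPM in them, so its mean reached 1 CPM through its 1000 µM libraries. The likeness was ranked with no test, and the libraries are shared by all genes.

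**Figure D4:**
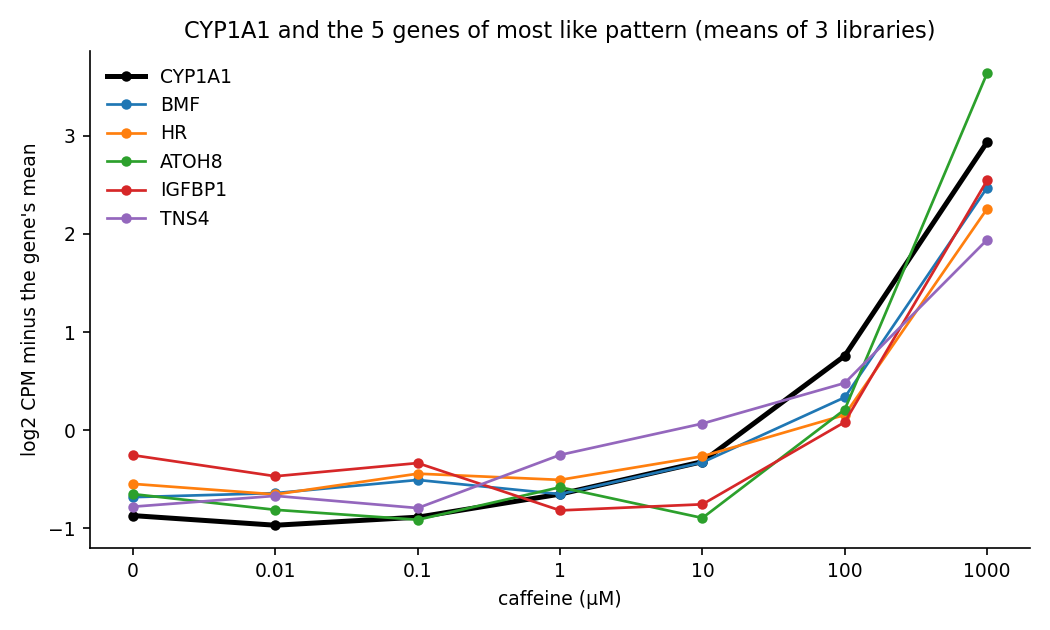
Mean log2 CPM of 3 libraries minus the gene's own mean (vertical axis) against caffeine dose, for CYP1A1 (black) and the 5 genes with the smallest difference from it. All 6 lines lie below their own mean up to 1 µM and are highest at 1000 µM, and CYP1A1 lies above the others at 100 µM.

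The other members had closer but flatter neighbours. For TIPARP they were FBXO33, RAB33B and ATAD1, at 0.08 each against an SD of 0.24 for TIPARP. For ALDH3A1 they were FURIN, DLL4 and CACNA1H, at 0.19 each against an SD of 0.52. FURIN, a protease that trims secreted precursors, stood at 111 CPM at 0 µM, 140 at 100 µM and 265 at 1000 µM. For AHR they were ERCC6L2 (0.07), PROX1 (0.07), a transcription factor of liver development, and NCOA7 (0.08), and for ARNT CASC3 (0.06), ZMYND8 (0.07) and SLTM (0.07), against SDs of 0.27 and 0.22.

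The pathway around the receptor was read from 6 lists of 76 further genes, of which 72 were in the table and 49 were tested. Among the 15 genes of the receptor complex and its coactivators, 8 rose and 1 fell at 1000 µM against 0 µM, with a median log2 difference of 0.55 beside -0.03 over all genes, of which 20.6% were called higher and 41.2% in either direction. MED1, a Mediator subunit, rose by 1.20 ± 0.15 on the log2 scale (adjusted p 1.17e-05). EP300 and CREBBP, the paired acetyltransferases, rose by 0.98 ± 0.21 (adjusted p 0.00111) and 0.92 ± 0.23 (adjusted p 0.00434). NCOA7, a nuclear receptor coactivator, rose by 0.80 ± 0.13 (adjusted p 0.000118). HSP90AB1, the chaperone, fell by 0.21 (adjusted p 0.0144) and is named outside the rule, after its value was seen. With the same controls, 7 of the 15 were higher and none lower in the mean of 0.01 to 10 µM than at 0 µM (median 0.52 beside -0.02 over all genes, 9.31% of them called higher), EP300 by 0.87 (adjusted p 0.00646). Between 100 and 1000 µM 2 of the 15 passed, both higher, NCOA7 (0.64, adjusted p 0.00257) and MED1 (0.67, adjusted p 0.00560). Of all genes 8.15% were called higher there and 14.7% in either direction.

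Of the bHLH-PAS relatives of AHR and ARNT 8 of 13 were tested, and 4 rose and none fell at 1000 µM against 0 µM (median 0.45), beside the 20.6% of all genes called higher and 41.2% in either direction. HIF1A and EPAS1, the oxygen-regulated partners of ARNT, rose by 0.93 ± 0.16 (adjusted p 0.000186) and 0.89 ± 0.11 (adjusted p 8.78e-06) on the log2 scale. CLOCK, the circadian factor, rose by 0.79 ± 0.15 (adjusted p 0.000578). These 3 were also higher in the mean of the low doses than at 0 µM, against 9.31% of all genes called higher and 18.2% in either direction. The number of genes called in that comparison rests on single control libraries, and these 3 calls were not refitted without them. NPAS1, which rose by 0.85 ± 0.22 (adjusted p 0.00505), did not pass in the mean of the low doses (-0.50, adjusted p 0.0521) and was lower at 10 µM than at 0 µM (-0.75, adjusted p 0.0257). Between 100 and 1000 µM 2 of the 8 rose, against 8.15% of all genes, NPAS1 by 1.11 (adjusted p 0.00271) and EPAS1 by 0.37 (adjusted p 0.0280).

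Of the other enzymes and carriers of the receptor's battery 7 of 11 were tested, and 4 rose at 1000 µM against 0 µM with none lower (median 0.41), beside the same 20.6% and 41.2%. NFE2L2, the antioxidant factor linked to the battery, rose by 0.92 ± 0.09 (adjusted p 4.80e-07) and was the one gene of all 6 lists called at 100 µM against the low doses (0.31, adjusted p 0.0391). CYP2S1 rose by 0.97 ± 0.24 (adjusted p 0.00341) and ABCG2, an efflux pump, by 0.41 ± 0.15 (adjusted p 0.0417). NQO1, a quinone reductase, went from 797 ± 72.0 CPM (SD, n = 3) without caffeine to 989 ± 133 CPM at the top dose, which is 0.31 ± 0.11 on the log2 scale (edgeR's adjusted p 0.0314). In the mean of the low doses NQO1 was lower than at 0 µM, by -0.27 on the log2 scale (adjusted p 0.0379). UGT1A9, GSTA2, GSTP1 and ALDH1A3 had at most 10 counts in any library and were not tested.

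Of 18 genes reported elsewhere as receptor targets 11 were tested, and 7 rose at 1000 µM against 0 µM with none lower (median 0.65), beside 20.6% of all genes called higher and 41.2% in either direction. SOS1, a Ras exchange factor, rose by 2.35 ± 0.18 (adjusted p 6.96e-08), from 89.8 ± 5.52 CPM to 459 ± 83.0 CPM. NEDD9, a docking protein of cell adhesion, rose by 0.88 ± 0.10 (adjusted p 3.91e-06), STC2, a secreted glycoprotein, by 0.81 ± 0.08 (adjusted p 9.90e-07) and KYNU, a kynurenine hydrolase, by 0.71 ± 0.12 (adjusted p 0.000142). Between 100 and 1000 µM 6 of the 11 rose, against 8.15% of all genes, KYNU by 0.74 (adjusted p 0.000351). In the low doses 1 of the 11 rose, SOS1 (0.58, adjusted p 0.0125), and 1 fell, HES1 (-0.49, adjusted p 0.0246), the latter named after its value was seen. These shares are close to the 9.31% of all genes called higher there and the 18.2% called in either direction.

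Of the enzymes that make or break down receptor ligands from tryptophan 7 of 11 were tested, and 3 were lower at 1000 µM than at 0 µM with none higher (median -0.42). Over all genes 20.6% were called higher and 41.2% in either direction. IL4I1, an amino acid oxidase, fell by 1.00 on the log2 scale (adjusted p 0.0131), from 37.7 to 18.8 CPM. TPH1, a tryptophan hydroxylase, fell by 0.96 (adjusted p 0.00982) and AFMID, a formamidase, fell by 0.42 (adjusted p 0.00164). None of the 7 passed between 100 and 1000 µM. TDO2 and IDO1, which open the tryptophan ring, had at most 2 and 4 counts in any library. Of 8 caffeine-metabolising genes outside the members, NAT1 was the one tested and did not pass (log2 -0.05 ± 0.16, adjusted p 0.837), and the other 7, CYP2E1, CYP3A4 and NAT2 among them, had at most 10 counts in any library.

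**Figure D5:**
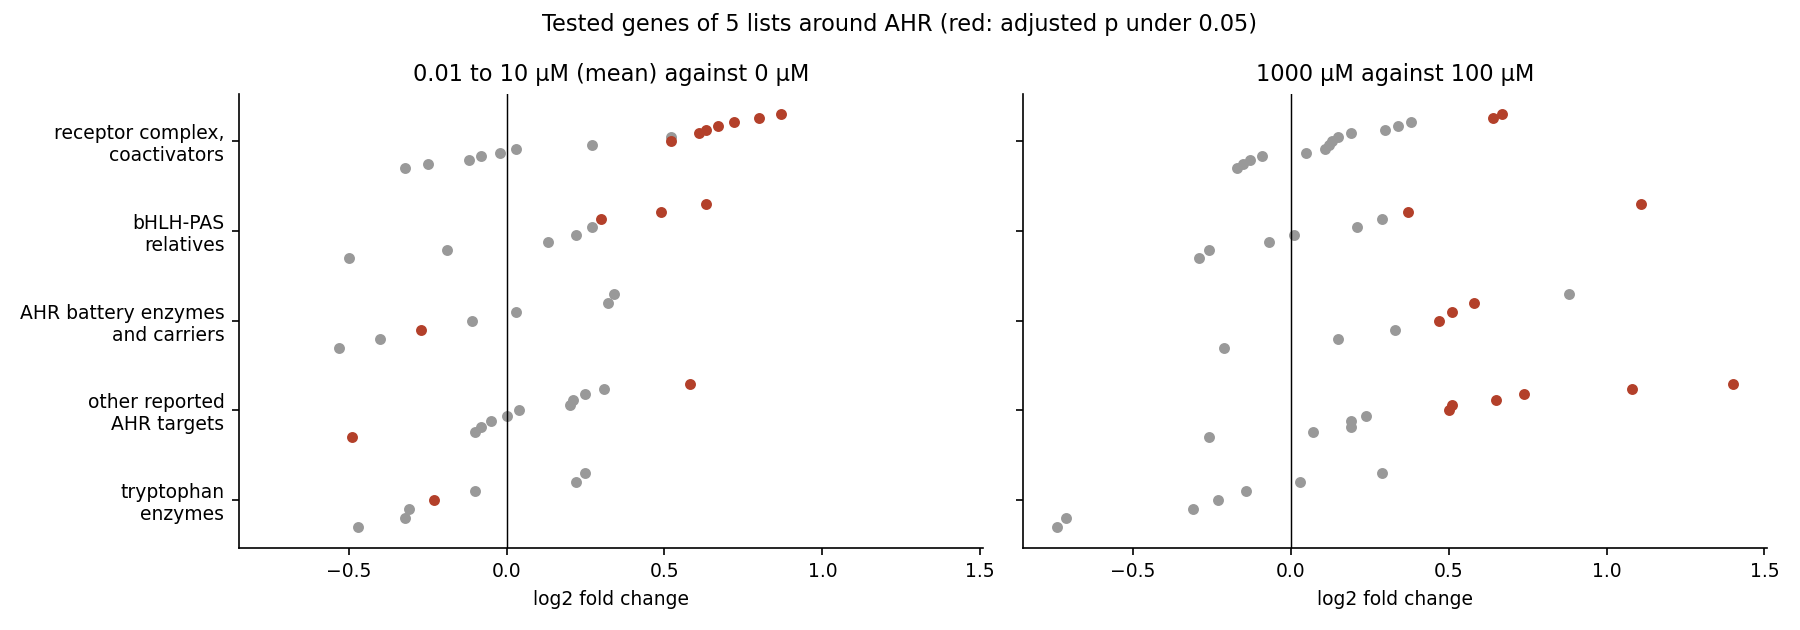
Log2 fold change (horizontal axis) of each tested gene of 5 lists (rows) for the mean of 0.01 to 10 µM against 0 µM (left) and for 1000 against 100 µM (right), with red for an adjusted p under 0.05. The receptor complex has 7 red points of 15 on the left and 2 on the right, and the other reported targets have 2 of 11 on the left, 1 of them below 0, and 6 on the right. Over all genes 18.2% were called in the left comparison and 14.7% in the right one.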

How the data were processed

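The authors deposited whole-number read counts per gene, not normalized. HISAT2, DESeq2 and GRCh38 are named per the submitters' processing notes, without versions. The counting program, annotation and strand setting are not given in the sources used here. Of 42 per-sample columns 21 matched the labels, and 21 were not used. One text of the series names coumarin for the control, while the sample labels say caffeine at 0 µM, and those were followed. Of 32937 Ensembl IDs 24843 matched a symbol, and 4700 features are unannotated.

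Counts were tested with edgeR 4.0.16 (R 4.3.3, quasi-likelihood, TMM, expression filter at 10 counts) in one fit of 21 libraries and 7 groups with 14 residual degrees of freedom, over 17468 genes (1617 unannotated), with Benjamini-Hochberg adjustment over all of them and a threshold of 0.05. SE is the log2 fold change over the square root of F, and intervals are 95%. CPM uses TMM-scaled totals. The limit of 3 counts and all intervals cover counting error or the spread between libraries only, and no molecular identifiers are stated. The script was tested on simulated data. Alternatives were DESeq2 1.42.0, RLE scaling, library totals, other filters, no unannotated features, a replicate block, fits of the compared groups alone and leaving out each library. Replicate libraries differed beyond counting noise (chi-square per gene 5.45 to 207 over 21 pairs), so none was counted as a duplicate.

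The 8 members, the lists and the rules were chosen with earlier results of these data known. All members are named. Of each list up to 4 genes are named, those past the threshold at 1000 µM against 0 µM with the largest change. These also had a mean of at least 1 CPM over the 21 libraries. For pattern likeness the 5 nearest genes to CYP1A1 and the 3 nearest to each of 4 other members are named. Coordinates are those of GENCODE v29, matched by ID without version.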

Additional observations from a re-analysis of the deposited data

How the results depend on the processing

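All 7 tested members stayed higher at 1000 µM than at 0 µM under each alternative that gave them a value, and against the mean of 0.01 to 10 µM, a reference chosen after seeing the data. For AHRR and CYP1A2 this is a description, since they passed the main filter only through their 1000 µM libraries. With library totals in place of TMM, 0 members were called at 0.01 µM, and all genes called were 1 at 0.01 µM and 680 at 100 µM. With no filter 101 genes were called at 0.1 µM and 230 at 1 µM, and with at least 10 counts in every sample 1301 at 0.01 µM. Fitting only the groups compared gave 0 members and 2 genes at 0.01 µM, 1 gene at 0.1 µM, 2 members (ARNT added, adjusted p 0.0286) and 4015 genes at 100 µM, and 48 genes at 100 µM against the low doses. DESeq2 called 2193, 521, 1410 and 2078 genes at 0.01, 0.1, 1 and 100 µM, 199 at 100 µM against the low doses, and 1 member (AHR) at 1 µM. TIPARP lost its call between 100 and 1000 µM with library totals (adjusted p 0.0516), and CYP1A2 did with no filter (adjusted p 0.0623). In the test among the 7 groups TIPARP passed in 4 settings, with adjusted p down to 0.00892 (DESeq2).

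With the replicate number as a block, 0 members and 0 genes were called at 0.01 µM, 445 genes at 100 µM, and 1 member (AHR) in the mean of 0.01 to 10 µM against 0 µM. The equal numbers did not pair the libraries: over 63 same-numbered pairs the correlation of deviations ran from -0.44 to 0.25 (median 0.02), with 10 pairs over 0.1, and not every library correlated best with its own number.

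Leaving out each library in turn gave the following ranges of members and of all genes called: 0 to 1 and 0 to 1079 at 0.01 µM, 0 to 0 and 0 to 865 at 0.1 µM, 0 to 1 and 0 to 1264 at 1 µM, 1 to 3 and 1260 to 3707 at 10 µM, 1 to 1 and 26 to 1133 at 100 µM, 7 to 7 and 5141 to 6882 at 1000 µM, 1 to 1 and 14 to 111 at 100 µM against the low doses, 2 to 5 and 1302 to 2987 at 1000 against 100 µM, 5 to 7 and 3071 to 6221 among the 7 groups, and 0 to 3 and 10 to 3969 in the low doses against 0 µM. The cause of these shifts was not tested. Depth limits CYP1B1, AHRR and CYP1A2, which had at most 14 counts per library below 1000 µM.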
